A study of Mus musculus with 24 samples.

Results

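Lipid droplets are coated with perilipins and are turned over by a lipase that is itself held in check by small inhibitor proteins. The genes followed here were *Plin2*, *Plin3*, *Plin4*, *Plin5*, *Cidec*, *Cideb*, *Pnpla2*, *Abhd5*, *G0s2* and *Hilpda*. They were taken by name from a table of 55487 mouse genes, of which 21543 had at least 1 count, and 10 of 10 were found. Transcript counts came from AML-12 cells, an immortalized line of mouse hepatocytes. *Plin2* rose and *G0s2* fell with palmitate, and *G0s2* was lower again in the groups that received *Chrebp* esiRNA. With *Chrebp* esiRNA alone, the test result for *G0s2* depended on single libraries.

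Perilipins cover the surface of the droplet and limit the access of lipases to the stored triglyceride. PLIN2 is the main coat protein of hepatocyte droplets, PLIN3 moves between the cytosol and new droplets, and PLIN4 and PLIN5 are best known from fat and oxidative tissues. The CIDE proteins act at droplet contacts: CIDEC drives droplet fusion, and CIDEB also takes part in the lipidation of very-low-density lipoprotein in the liver. PNPLA2, also called ATGL, cleaves triglyceride to diglyceride. ABHD5 activates it, whereas G0S2 and HILPDA inhibit it.

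The 24 libraries formed 6 groups of 4 cultures. All cells were kept in medium without dexamethasone and with charcoal-treated serum. BSA cells received the albumin carrier alone, and PAL cells received 0.25 mM palmitate bound to albumin. The remaining groups also received palmitate and, on the next day, esiRNA, a pool of short interfering RNAs made by enzymatic digestion. The target was *Egfp* in CON (200 nM), *Bmal1* in BMAL1 (100 nM) and *Chrebp* in CHREBP (100 nM). In BOTH the pools against *Bmal1* and *Chrebp* were combined (200 nM in total). RNA was taken 24 h after the esiRNA. BSA and PAL were not transfected, so the comparison of CON with PAL holds transfection. The single-gene groups received less esiRNA in all than CON or BOTH. Each comparison of a single-gene group with CON or BOTH therefore also holds total esiRNA dose. The labels do not say whether the 4 cultures of a group were set up on separate days, so the *P* values measure the spread between wells. Library positions on the plate followed the groups. BSA and PAL filled column 1, CON and BMAL1 column 2, and CHREBP and BOTH column 3, with the groups of a column in different rows. Position and treatment cannot be told apart in any comparison below.

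Promoter sequence is shown for *Plin2*, the coat gene that rose with palmitate, and for the lipase gene *Pnpla2* with its regulators *Abhd5*, *G0s2* and *Hilpda*, since the study silenced factors that bind DNA near start sites. The windows are the 250 bases upstream of the RefSeq start on GRCm38.p6, in the direction of transcription. Capitals mark matches, on either strand, to the nuclear receptor hexamer AGGTCA or the GC box GGGCGG. The windows lie at chr4:86670060-86670309 on the minus strand for *Plin2*, chr1:193273189-193273438 on the minus strand for *G0s2*, chr7:141454938-141455187 on the plus strand for *Pnpla2*, chr9:122351366-122351615 on the plus strand for *Abhd5* and chr6:29272238-29272487 on the plus strand for *Hilpda*.
*Plin2*: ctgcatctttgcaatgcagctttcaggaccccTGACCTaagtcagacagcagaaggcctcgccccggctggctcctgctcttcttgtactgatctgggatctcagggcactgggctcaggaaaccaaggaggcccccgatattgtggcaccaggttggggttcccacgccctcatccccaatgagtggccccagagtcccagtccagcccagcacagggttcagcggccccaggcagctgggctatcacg
*G0s2*: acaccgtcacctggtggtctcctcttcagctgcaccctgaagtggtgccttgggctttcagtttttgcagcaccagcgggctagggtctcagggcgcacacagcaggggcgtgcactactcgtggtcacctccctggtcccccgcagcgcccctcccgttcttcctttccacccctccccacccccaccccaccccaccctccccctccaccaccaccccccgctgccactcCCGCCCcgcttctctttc
*Pnpla2*: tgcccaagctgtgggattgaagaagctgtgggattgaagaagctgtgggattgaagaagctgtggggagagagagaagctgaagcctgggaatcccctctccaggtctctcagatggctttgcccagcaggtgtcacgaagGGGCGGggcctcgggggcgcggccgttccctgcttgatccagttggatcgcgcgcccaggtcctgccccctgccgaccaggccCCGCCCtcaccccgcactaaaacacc
*Abhd5*: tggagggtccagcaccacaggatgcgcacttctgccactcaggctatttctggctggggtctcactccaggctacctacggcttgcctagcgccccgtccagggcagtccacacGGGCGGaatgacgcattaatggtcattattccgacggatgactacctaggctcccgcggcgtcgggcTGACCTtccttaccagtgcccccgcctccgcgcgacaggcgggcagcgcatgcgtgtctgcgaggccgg
*Hilpda*: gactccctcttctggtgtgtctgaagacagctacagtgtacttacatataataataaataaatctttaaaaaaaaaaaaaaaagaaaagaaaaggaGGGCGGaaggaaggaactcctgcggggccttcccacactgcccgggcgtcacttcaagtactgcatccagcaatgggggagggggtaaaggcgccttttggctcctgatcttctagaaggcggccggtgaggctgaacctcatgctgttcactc

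RefSeq gave 13 windows for the 10 members, since some have more than 1 start. The E-box CACGTG, the sequence that BMAL1 and its partner CLOCK bind, was in 0 of the 13, against 6.02% of 32851 mouse windows of the same length. The DR1 element, a pair of AGGTCA hexamers spaced by 1 base and bound by PPAR with RXR, was also in 0 of 13, and in 0.0335% of all windows. The hexamer AGGTCA was present in 3 of 13, at 218 bases upstream of the *Plin2* start, 69 upstream of an *Abhd5* start and 170 upstream of a *Plin5* start, and 4607 of the 32851 windows hold it. The GC box was found in 8 of 13, and in 32.7% of all windows. It lay 18 bases upstream of the *G0s2* start, 109 and 26 upstream of the *Pnpla2* start, 136 upstream of the *Abhd5* start and 154 upstream of 1 *Hilpda* start, and the other 4 windows were of *Cideb*, *Plin3* and *Plin5*. The letters TATAAA were found in the *Cideb* window alone among the members, against 12.4% of all windows. The letters ACGTG, the core of the hypoxia element and also part of the E-box, were found 43 bases upstream of another *Hilpda* start and in 16.6% of all windows. These matches describe the letters in the windows and say nothing of binding.

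Library depth ran from 5399700 to 11237474 gene counts. The smallest level treated as detectable, 3 counts, was 0.267 to 0.556 CPM. BOTH replicate 4 stood farthest from its group over all genes, with a root mean square log2 deviation of 0.303 against 0.144 to 0.230 in the others. The means of the targeted genes were lower in the groups labelled for them, with no overlap against CON only for *Chrebp* in BOTH. *Bmal1* (*Arntl*) was at 44.7 ± 11.6 normalized counts in CON, 26.0 ± 4.82 in BMAL1 and 22.8 ± 6.64 in BOTH, and *Chrebp* (*Mlxipl*) was at 35.6 ± 7.26 in CON, 25.9 ± 4.75 in CHREBP and 17.04 ± 4.91 in BOTH (SD, n = 4). In the untransfected groups *Chrebp* was at 59.8 ± 17.3 in BSA and 33.3 ± 6.90 in PAL, without overlap. *Bmal1* was at 49.1 ± 7.31 in BSA and 50.5 ± 11.9 in PAL. Of 9 hepatocyte markers, 8 had a mean of at least 10 counts, but *Apoa1* had only 2 to 15 counts per library and *Alb* 86 to 242. The bile duct marker *Krt19* was at 1541 to 4154 counts and *Epcam* at 0 to 2. Marker sums moved with some groups. The summed hepatocyte markers were 48425 to 52040 normalized counts in BSA and 56421 to 62834 in PAL, and most of this sum came from *Krt18* (18999 to 47564 counts per library) and *Krt8* (7414 to 19893), keratins of simple epithelia in general. The summed bile duct markers, of which 3 of 4 had a mean of at least 10 counts, lay between 3985 and 4569 in BSA and between 4703 and 5480 in PAL. The same sum lay between 5102 and 5366 in CON and between 3803 and 4633 in BOTH. Their part in the results below was not tested. The adipocyte markers *Plin1*, *Lep*, *Retn* and *Cfd* were at 0 in every library, and *Adipoq* had 0 to 1 counts. Of the macrophage markers, *Adgre1* and *Clec4f* were at 0 in every library. The others were low but present, with 5 to 27 counts per library for *Cd68*, 0 to 17 for *Csf1r* and 0 to 8 for *Ptprc*. An interferon response differed strongly between groups: the summed level of 12 interferon genes lay between 574 and 642 normalized counts in the BSA libraries, between 501 and 531 in the PAL libraries and between 1100 and 7543 in the CON libraries. BMAL1 libraries held 1202 to 1749, CHREBP libraries 21702 to 44139 and BOTH libraries 42614 to 65331.

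Among the members, 7 were expressed well above the floor in every library. Raw counts per library were 1891 to 4954 for *Plin2*, 745 to 1605 for *Plin3*, 561 to 1155 for *Cideb*, 494 to 1355 for *Pnpla2*, 201 to 452 for *Abhd5*, 365 to 1033 for *G0s2* and 71 to 239 for *Hilpda*. The other 3 were at or near the floor, so no difference between groups was detectable at this depth. *Plin4* had 14 counts over all 24 libraries, with 0 in 19 of them and 9 in CHREBP replicate 4. *Plin5* had 33 counts and *Cidec* 43 counts in all, and neither exceeded 7 in a library. *Cidec* alone of these passed the filter on low counts in the esiRNA groups, had no DESeq2 *Padj* in the Wald tests (0.916 in the likelihood ratio test), and gave two-sided exact permutation *P* values from 0.371 to 0.943 in 5 comparisons, before any adjustment. For orientation, the adipocyte perilipin *Plin1* had 0 counts and *Cidea* 1 count in the 24 libraries together.

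**Figure D1:**
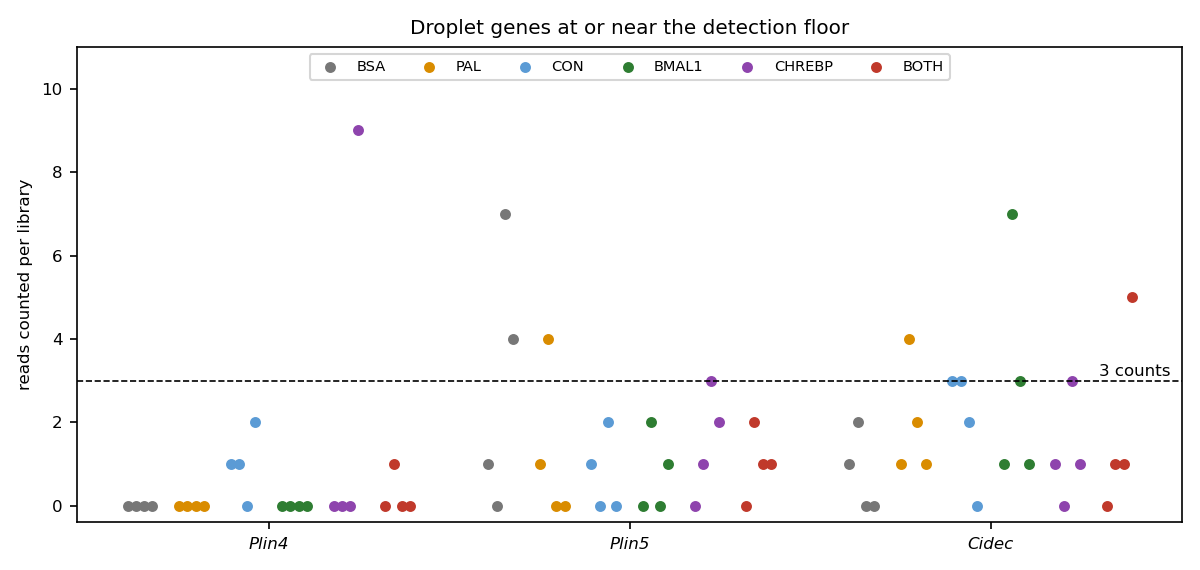
Raw counts per library (y axis) of *Plin4*, *Plin5* and *Cidec* by group; each point is 1 library and the dashed line marks 3 counts. Apart from 9 counts of *Plin4* in CHREBP replicate 4, no value exceeds 7, and no group stands apart from the rest.

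The perilipin genes *Plin4*, *Plin5* and *Plin3* lie on mouse chromosome 17 (GRCm38, minus strand): *Plin4* at 56100591 to 56109803, *Plin5* at 56111601 to 56117596 and *Plin3* at 56277476 to 56292873. Only 1797 bases and no annotated gene separate *Plin4* from *Plin5*, and 159879 bases separate *Plin5* from *Plin3*. Within this stretch *Plin3* was well expressed while its neighbours were near the floor. *Plin2* lies on chromosome 4 at 86648386 to 86670060, *Cidec* on chromosome 6 at 113424634 to 113435760 and *Cideb* on chromosome 14 at 55754050 to 55758458, all on the minus strand. *Pnpla2* lies on chromosome 7 at 141455198 to 141460743 and *Abhd5* on chromosome 9 at 122351608 to 122381524, both on the plus strand. *G0s2* lies on chromosome 1 at 193272161 to 193273217 on the minus strand and *Hilpda* on chromosome 6 at 29272488 to 29275446 on the plus strand. *Cideb* shares 76.3% of its 1488 exonic bases with *Nop9* on the other strand, which had 318 to 670 counts per library. How the counting used strand is not given in the sources used here, so *Cideb* counts are uncertain to that extent. *Abhd5* shares 950 of its 5956 exonic bases with *A730085K08Rik*, which had 0 to 2 counts.

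Across the 6 groups, *G0s2* varied most among the expressed members. Its highest group mean was 1.81 times its lowest, against 1.38 for *Pnpla2* and *Hilpda*, 1.34 for *Abhd5*, 1.31 for *Plin2*, 1.24 for *Plin3* and 1.21 for *Cideb*. Levels below are normalized counts, which are counts divided by the DESeq2 size factor of the library over all 24 libraries. They compare libraries for a single gene and do not rank genes. The order of *G0s2* group means was BSA, PAL, CON, BMAL1, CHREBP and BOTH, from 799 ± 61.0 to 442 ± 29.6 (SD, n = 4). Neighbours in this order overlapped except BSA with PAL and BMAL1 with CHREBP. The order for *Plin2* was BOTH, PAL, CHREBP, CON, BMAL1 and BSA, from 3741 ± 61.8 to 2846 ± 124, and the sole neighbours without overlap were BMAL1 and BSA. For *Pnpla2* the order ran from BOTH (973 ± 219) through BSA, CHREBP, BMAL1 and CON to PAL (705 ± 82.6), and for *Abhd5* from BOTH (378 ± 25.01) through CHREBP, BSA, CON and BMAL1 to PAL (283 ± 36.5). *Hilpda* ran from PAL (147 ± 19.9) through CON, BMAL1, CHREBP and BOTH to BSA (107 ± 23.5). *Plin3* ran from BSA (1189 ± 118) through BMAL1, PAL, CON and CHREBP to BOTH (961 ± 136), and *Cideb* from BSA (838 ± 157) through BMAL1, CON, CHREBP and BOTH to PAL (692 ± 33.1). In these last 5 genes every pair of neighbours overlapped.

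**Figure D2:**
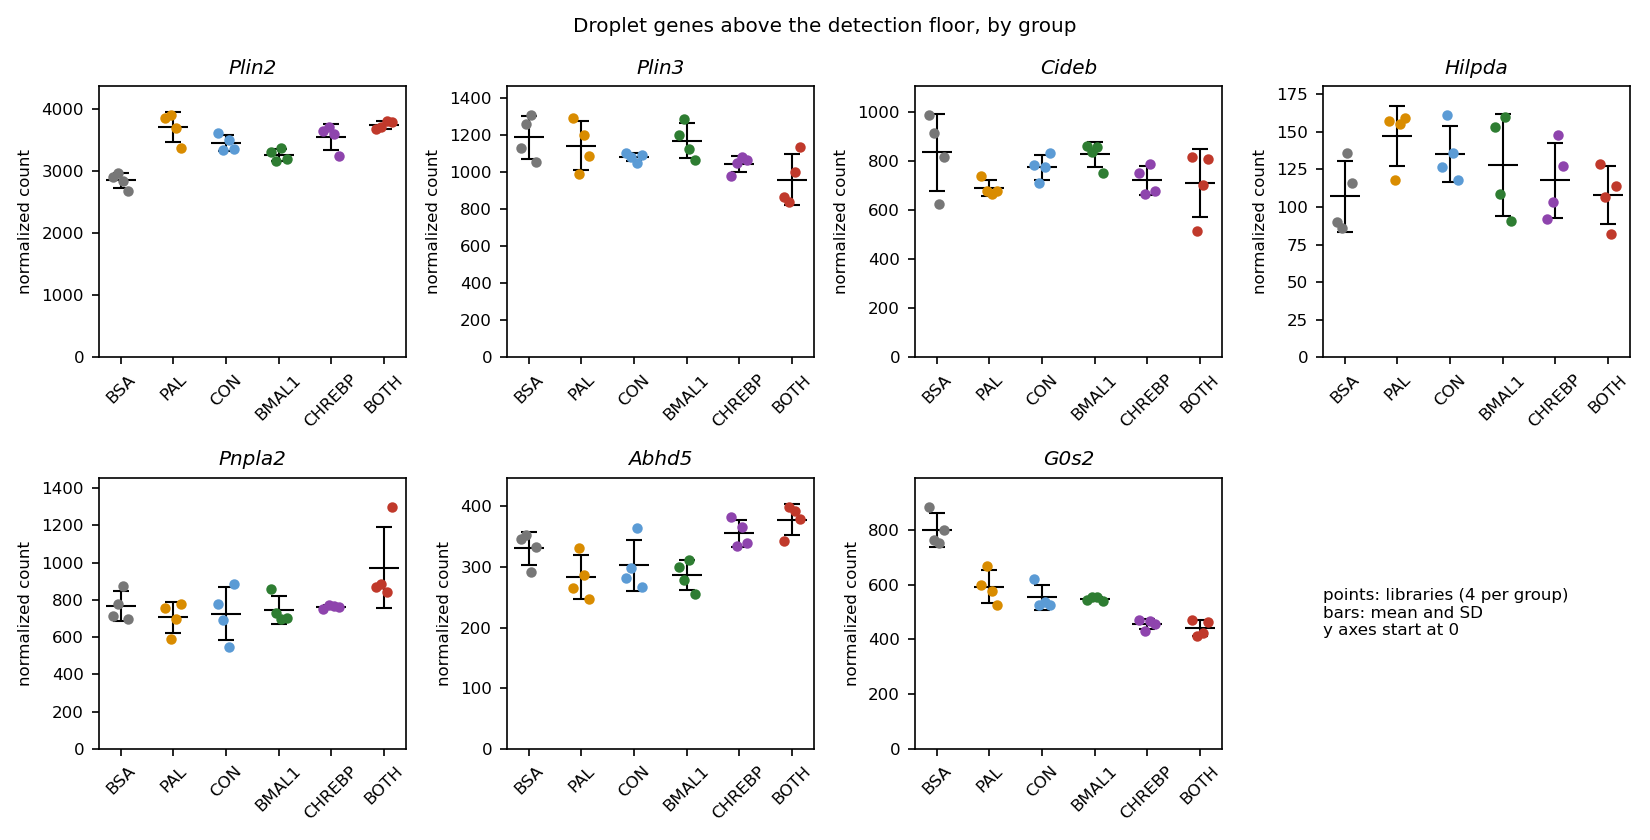
Normalized counts (y axes, each starting at 0) of the 7 expressed members in the 6 groups; points are libraries, 4 per group, and bars give mean and SD. *Plin2* is lowest in BSA, *G0s2* steps down from BSA to PAL and again to CHREBP and BOTH, and 1 BOTH library of *Pnpla2* lies at 1301, far above the other 3.

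The first comparison asked how palmitate loading changed the droplet genes. Palmitate raised the coat gene *Plin2* and lowered the lipase inhibitor gene *G0s2*, and in both the PAL and BSA libraries did not overlap, as in 15.1% of all genes. *Hilpda* was called higher and *Cideb* lower, each with overlapping groups. Of the 7 members tested with DESeq2, 2 were higher and 2 lower at *Padj* under 0.1, against 14.3% of 12827 genes tested (6.65% higher and 7.6% lower). In bulk RNA, a change in the share of cells that express a gene and a change in RNA per cell cannot be told apart.

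*Plin2* was at 2900, 2964, 2843 and 2675 normalized counts in the BSA libraries and at 3846, 3896, 3691 and 3358 in the PAL libraries. Every PAL library was above every BSA library. The log2 fold change was 0.38 (SE 0.06, DESeq2 *Padj* = 1.55e-08), a rise of 30.4%. *Plin3*, another coat gene, was at 1054 to 1309 in BSA and 993 to 1294 in PAL, with a log2 fold change of -0.05 (95% interval -0.22 to 0.12, DESeq2 *Padj* = 0.809). *Cideb* was at 989, 917, 627 and 819 in BSA and at 741, 679, 668 and 679 in PAL. BSA replicate 3 was the lowest of the 8 libraries, and the other BSA libraries were above every PAL library. The log2 fold change was -0.27 (SE 0.11, DESeq2 *Padj* = 0.0815).

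Of the lipase and its regulators, the inhibitor genes moved in opposite directions. *G0s2* was at 885, 761, 750 and 801 normalized counts in BSA and at 599, 669, 578 and 525 in PAL. The lowest BSA library was above the highest PAL library. The log2 fold change was -0.43 (SE 0.09, DESeq2 *Padj* = 4.49e-05), and *G0s2* fell by 25.6%. *Hilpda*, a gene known to respond to fatty acids and hypoxia, was at 89.9, 86.1, 136 and 116 in BSA and at 157, 118, 155 and 159 in PAL. PAL replicate 2 lay within the BSA range, while the other PAL libraries were above every BSA library. The log2 fold change was 0.47 (SE 0.17, DESeq2 *Padj* = 0.0544). *Pnpla2*, the lipase gene, had 699 to 877 in BSA and 591 to 776 in PAL, and a log2 fold change of -0.12 (95% interval -0.30 to 0.07, *Padj* = 0.540). *Abhd5* had 292 to 352 in BSA and 247 to 332 in PAL, and a log2 fold change of -0.22 (95% interval -0.44 to 0.0035, *Padj* = 0.236).

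The *Plin2* and *G0s2* calls remained whichever library was left out, while those of *Hilpda* and *Cideb* did not. For *Hilpda* the DESeq2 *Padj* was 0.229 without BSA replicate 1, 0.237 without BSA replicate 2, and 0.140, 0.157 and 0.184 without PAL replicates 1, 3 and 4. Over all 8 left-out libraries its log2 fold change lay between 0.38 and 0.62, and that of *Cideb* between -0.39 and -0.18. For *Cideb* the DESeq2 *Padj* was 0.400 (log2 fold change -0.18), 0.283 and 0.125 without BSA replicates 1, 2 and 4. It was 0.158, 0.199 and 0.180 without PAL replicates 2, 3 and 4. *Abhd5* was called lower without PAL replicate 2 (log2 fold change -0.31, *Padj* = 0.0809).

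Other genes of droplet biology were split in the same comparison. Of 22 other droplet genes tested, 2 were called higher and 3 lower, with a median log2 fold change of -0.06 against 0.0048 over all genes. *Hsd17b13*, a droplet-bound dehydrogenase of the liver, was at 203 ± 22.5 normalized counts (SD, n = 4) in BSA but only 31.6 ± 6.08 in PAL. This was a log2 fold change of -2.68 (DESeq2 *Padj* = 2.30e-41). *Dgat2*, which makes the last step of triglyceride synthesis, had a log2 fold change of -0.96, and *Sqle*, an enzyme of cholesterol synthesis, of 0.75. The acyl-CoA synthetase gene *Acsl3* (0.39) and the lysosomal lipase gene *Lipa* (-0.52) were also called, and are named here after their values were seen. Of 16 tested PPAR factors and targets, 3 were called higher and 2 lower (median -0.03), with *Acot1* at 0.35, *Cpt1a* at 0.29 and *Acot2* at 0.80. *Rxra* (-0.28), named after its values were seen, was lower. Of 12 tested hypoxia genes, 1 was higher and 4 were lower (median -0.10). *Ldha* was at 0.21, *Ndrg1* at -0.27 and *Vegfa* at -0.35. *Hif1a* itself was called lower (-0.24), as was *Egln3* (-1.17), both named after their values were seen. Of 9 tested interferon genes, 2 were called lower, *Ifit1* (-0.90) and *Stat2* (-0.34), and the summed interferon level did not overlap between PAL and BSA. The part of this in the members' differences was not tested.

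**Figure D3:**
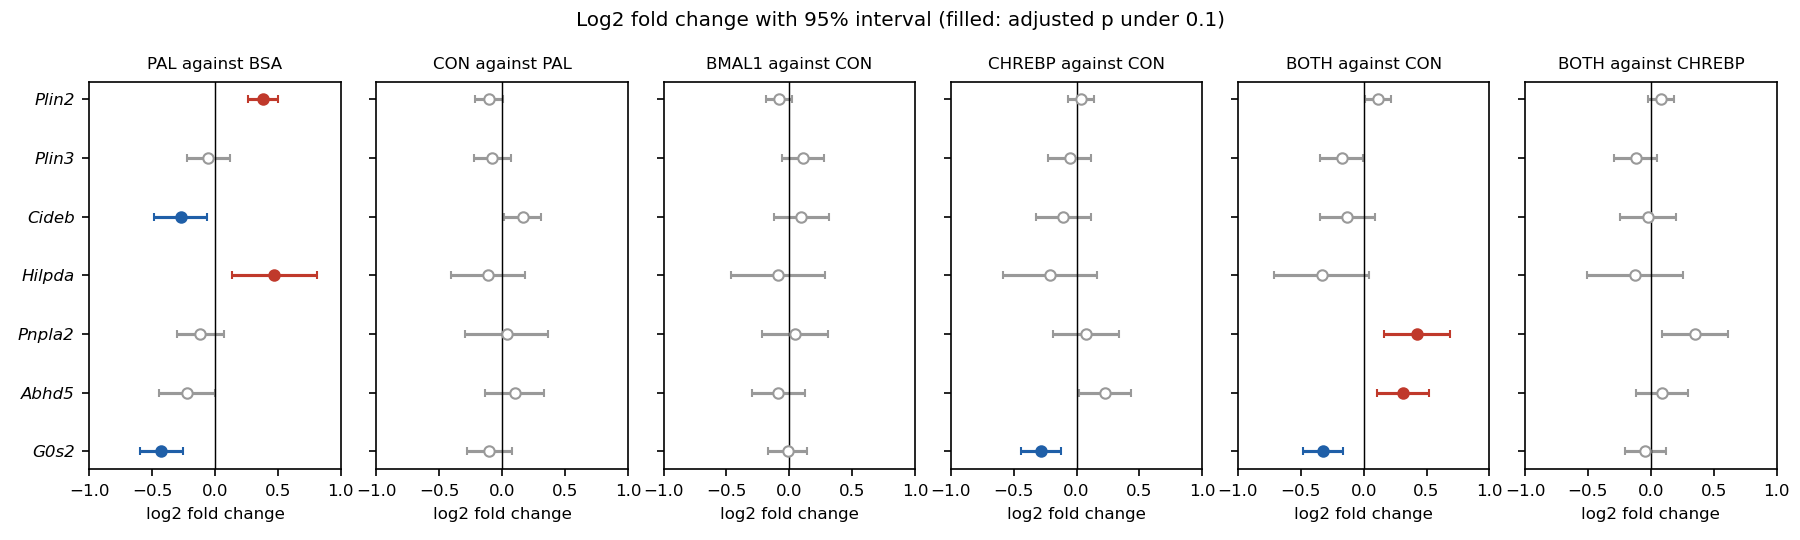
Log2 fold change (x axis) of the 7 expressed members in 6 comparisons, with 95% intervals; filled points have a DESeq2 *Padj* under 0.1, red higher and blue lower. In all, 4 members are filled in PAL against BSA, *G0s2* alone in CHREBP against CON, and *G0s2*, *Pnpla2* and *Abhd5* in BOTH against CON.

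CON and PAL differ by the transfection with *Egfp* esiRNA. None of the 7 members tested was called by DESeq2, against 2.51% of 12928 genes. With an unadjusted *P* under 0.05 there was 1 member, and edgeR called 0. That member was *Cideb*, at 741, 679, 668 and 679 normalized counts in PAL and 786, 710, 777 and 834 in CON (log2 fold change 0.16, DESeq2 *Padj* = 0.373). *Plin2* was at 3607, 3341, 3492 and 3342 in CON (log2 fold change -0.10, 95% interval -0.21 to 0.0082) and *G0s2* at 621, 525, 538 and 526 (-0.10, 95% interval -0.28 to 0.07). Of the other lists, *Dgat2* was the sole droplet gene called (log2 fold change 0.53) among 22 and *Ndrg1* the sole hypoxia gene (0.20) among 12, and 0 of 15 PPAR genes were called, with 1 at an unadjusted *P* under 0.05. Against this, 10 of 10 tested interferon genes were called higher.

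To see whether the clock factor *Bmal1* acted on these genes in loaded cells, BMAL1 was compared with CON. The data showed no called member: DESeq2 and edgeR both called 0, and 0 had an unadjusted *P* under 0.05, against 0.49% of 13883 genes called. *Plin2* was at 3306, 3159, 3373 and 3186 normalized counts in BMAL1, a log2 fold change of -0.08 against CON (95% interval -0.19 to 0.02). *G0s2* was at 544, 554, 554 and 539, within the range of CON, and its log2 fold change of -0.01 had a 95% interval of -0.17 to 0.14. *Pnpla2* was at 857, 730, 699 and 701 in BMAL1 (log2 fold change 0.04, 95% interval -0.22 to 0.30) and *Abhd5* at 300, 278, 311 and 256 (-0.09, 95% interval -0.30 to 0.12). Among the 7 expressed members *Hilpda* was the least precise, at 153, 108, 160 and 90.5, with a 95% interval of -0.47 to 0.28 on the log2 scale. *Plin3* and *Cideb* had log2 fold changes of 0.11 and 0.09. No gene of the other droplet (22 tested), PPAR (17) or hypoxia (13) lists was called by DESeq2, and of these only 1, a PPAR gene, had an unadjusted *P* under 0.05. Of 12 interferon genes, 6 were called lower (median log2 fold change -1.81), and the summed level of 1202 to 1749 in BMAL1 lay within the range of CON.

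The next comparison asked what *Chrebp* esiRNA did to the droplet genes, since ChREBP is a factor that drives carbohydrate-responsive lipid synthesis genes. The lipase inhibitor gene *G0s2* was lower, and it was the only one of the 8 tested members that DESeq2 called, against 3.42% of 13883 genes (0.771% lower). *G0s2* was at 471, 430, 466 and 457 normalized counts in CHREBP. Every CHREBP library was below every CON library, as in 8.58% of all genes for either direction, and the log2 fold change was -0.28 (SE 0.08, DESeq2 *Padj* = 0.0198), so that *G0s2* fell by 17.7%. The call was lost without CON replicate 1 (log2 fold change -0.22, *Padj* = 0.190) and without CHREBP replicate 2 (-0.25, *Padj* = 0.117). CON replicate 1 had the highest *G0s2* level of the CON group, 621, and the lowest summed interferon level, 1100 against 3929 to 7543 in the other CON libraries. The summed interferon level was 21702 to 44139 in CHREBP, and its part in the *G0s2* difference was not tested.

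*Abhd5* was at 382, 334, 366 and 340 normalized counts in CHREBP and 282, 298, 364 and 267 in CON. Its log2 fold change was 0.23 (SE 0.11, DESeq2 *Padj* = 0.347). CON replicate 3 lay within the CHREBP range, and without it *Abhd5* was called (0.33, *Padj* = 0.0664). *Plin2* was at 3640, 3705, 3590 and 3233 in CHREBP (log2 fold change 0.04, 95% interval -0.07 to 0.14). *Pnpla2* was at 753, 770, 765 and 762, the narrowest group of all for this gene (SD 7.24), and its log2 fold change was 0.07 (95% interval -0.19 to 0.33). *Hilpda*, *Cideb* and *Plin3* had log2 fold changes of -0.21, -0.11 and -0.05, each with an interval that spans 0. Among 22 other droplet genes, *Lipa* was the sole DESeq2 call, higher (0.25). Of 17 PPAR genes 1 was called lower, with 5 at an unadjusted *P* under 0.05. Of 13 hypoxia genes 0 were called, with 1 at an unadjusted *P* under 0.05.

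When both genes were silenced, *G0s2* was lower than in CON, and the lipase gene *Pnpla2* and its co-activator gene *Abhd5* were higher. DESeq2 called these 3 of the 8 members tested, against 9.73% of 13883 genes (5.99% higher and 3.75% lower). *G0s2* was at 470, 412, 422 and 465 normalized counts in BOTH, below every CON library. Its log2 fold change was -0.33 (SE 0.08, DESeq2 *Padj* = 0.00155), and *G0s2* fell by 20.2%. This call remained under each alternative and each left-out library, with log2 fold changes of -0.36 to -0.27. *Abhd5* was at 343, 399.5, 391.5 and 378 in BOTH, with only CON replicate 3, at 364, inside that range. Its log2 fold change was 0.32 (SE 0.11, DESeq2 *Padj* = 0.0385). The *Abhd5* call was lost in the fit of BOTH and CON alone (*Padj* = 0.110), and without CON replicates 1, 2 and 4 (*Padj* = 0.138, 0.106 and 0.160) and BOTH replicates 2 and 3 (*Padj* = 0.114 and 0.101).

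*Pnpla2* rested on few libraries. It was at 868, 885, 840 and 1301 normalized counts in BOTH and at 779, 690, 548 and 885 in CON. BOTH replicate 4 was far above the rest, and CON replicate 4 was within the BOTH range. The log2 fold change was 0.42 (SE 0.13, DESeq2 *Padj* = 0.0227), but it was 0.26 without BOTH replicate 4 (*Padj* = 0.141) and 0.31 without CON replicate 3 (*Padj* = 0.159). BOTH replicate 4 was also the library farthest from its group over all genes.

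The coat genes were not called in BOTH against CON. *Plin2* was at 3668, 3711, 3795 and 3789.5 normalized counts in BOTH, every library above the CON range, with a log2 fold change of 0.12 (95% interval 0.01 to 0.22, DESeq2 *Padj* = 0.200). *Plin3* was at 866, 841, 999 and 1136 in BOTH and at 1104, 1082, 1053 and 1093 in CON. BOTH replicate 4 was above the CON range and the other 3 were below it. The log2 fold change of *Plin3* was -0.18 (*Padj* = 0.253), and -0.27 without BOTH replicate 4 (*Padj* = 0.00810), where it was called. Without BOTH replicate 2 it was -0.11 (*Padj* = 0.527). *Hilpda* was at 128, 107, 82.0 and 114 in BOTH, with a log2 fold change of -0.34 (95% interval -0.71 to 0.04, *Padj* = 0.362). *Cideb* was at 816, 516, 703 and 809, and its log2 fold change of -0.13 (*Padj* = 0.619) came to 0.0018 without BOTH replicate 2. The summed interferon level was 42614 to 65331 in BOTH, and its part in these differences was not tested. Across all genes, 10.9% had no overlap between BOTH and CON, against *G0s2* and *Plin2* among the members.

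**Figure D4:**
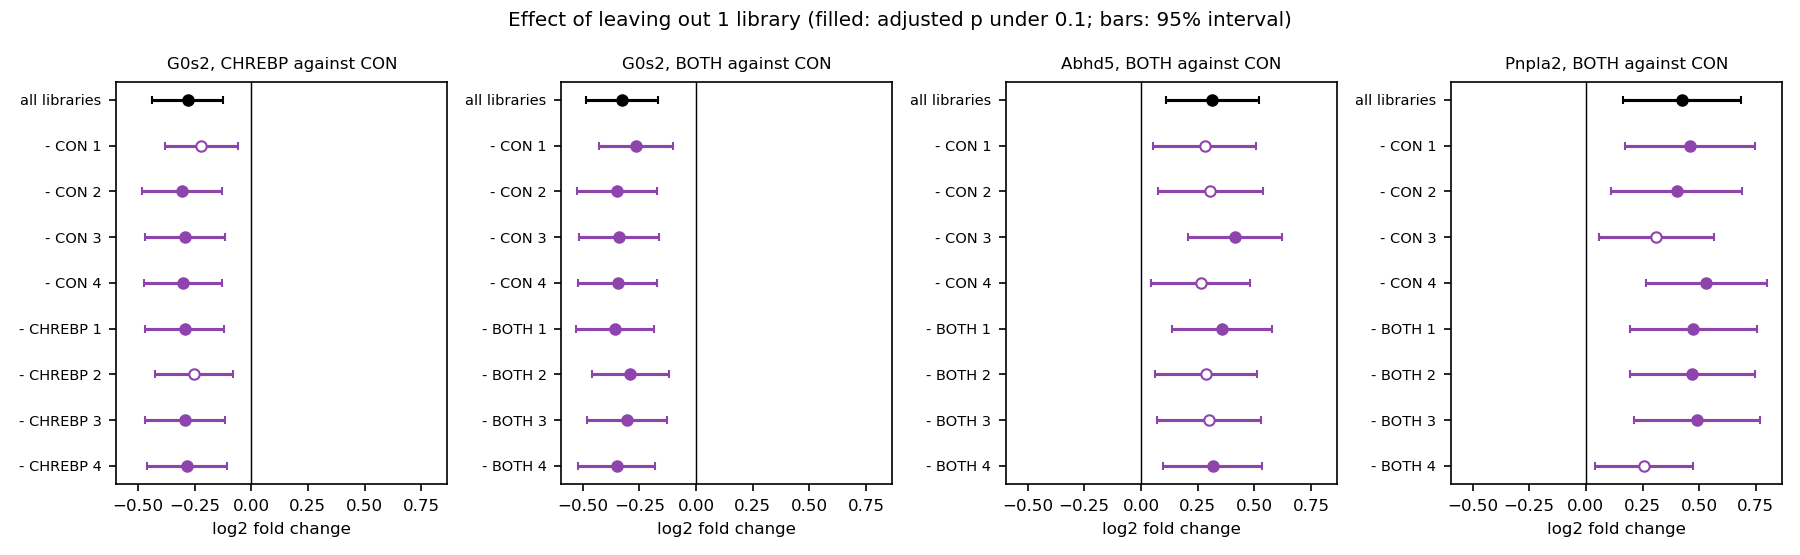
Log2 fold change (x axis) and 95% interval with all libraries (black) and with 1 library left out (purple), for *G0s2*, *Abhd5* and *Pnpla2*; filled points have a DESeq2 *Padj* under 0.1. *G0s2* in BOTH stays filled in each row, while *Pnpla2* falls from 0.42 to 0.26 without BOTH replicate 4.

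Of the other lists, *Lipa* was higher (log2 fold change 0.57) and *Acsl3* lower (-0.48) among 22 droplet genes in BOTH against CON. Of 17 PPAR genes 1 was called higher and 2 lower, among them *Acadm*, an enzyme of fatty acid oxidation (-0.26), and *Angptl4*, an inhibitor of lipoprotein lipase (0.33). *Epas1* (-0.73) was the sole call among 13 hypoxia genes. The median log2 fold change was -0.02 for the droplet list, -0.10 for the PPAR list and -0.03 for the hypoxia list, against -0.01 over all genes.

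Silencing of *Bmal1* on top of *Chrebp* was read from BOTH against CHREBP, which also raised total esiRNA from 100 to 200 nM. Here 0 of 8 members were called by DESeq2 and by edgeR, against 0.994% of 13883 genes. With an unadjusted *P* under 0.05 there was 1, *Pnpla2*, whose BOTH libraries were all above the CHREBP libraries, while 3.41% of all genes had no overlap (log2 fold change 0.35, DESeq2 *Padj* = 0.272). Without BOTH replicate 4 this value was 0.18 (*Padj* = 0.516). *G0s2* had a log2 fold change of -0.05 (95% interval -0.21 to 0.12) and *Abhd5* of 0.09 (95% interval -0.12 to 0.30). *Lipa* was the sole call among the 22 other droplet genes (0.31), and the PPAR and hypoxia lists had 0, with 2 and 0 genes at an unadjusted *P* under 0.05.

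BOTH against BMAL1 adds *Chrebp* esiRNA to *Bmal1* esiRNA and also raises total esiRNA from 100 to 200 nM. It gave calls for 5 of 8 members with DESeq2, against 10.4% of 13883 genes (6.35% higher and 4.08% lower). *Abhd5* was higher by 0.40 on the log2 scale (DESeq2 *Padj* = 0.00379), *Pnpla2* by 0.38 (*Padj* = 0.0467) and *Plin2* by 0.20 (*Padj* = 0.00423). *G0s2* was lower, with a log2 fold change of -0.31 (*Padj* = 0.00322), as was *Plin3* with -0.29 (*Padj* = 0.0160). The libraries of *Abhd5*, *Plin2* and *G0s2* did not overlap between the groups, against 11.3% of all genes. *Plin3* lost its call without BMAL1 replicate 2 (log2 fold change -0.24, *Padj* = 0.117) and in the fit of BOTH and BMAL1 alone (-0.285, *Padj* = 0.113). *Pnpla2* lost its call without BMAL1 replicate 2, 3 or 4 (*Padj* = 0.128, 0.151 and 0.150) and without BOTH replicate 4 (log2 fold change 0.21, *Padj* = 0.250). *Cideb* (-0.22, *Padj* = 0.248) was called without BOTH replicate 1 (*Padj* = 0.0995) or 4 (*Padj* = 0.0741), whereas without BOTH replicate 2 its log2 fold change was -0.09 (*Padj* = 0.637). The comparisons of CHREBP and BOTH with CON share the CON libraries, and those of BOTH share the BOTH libraries, so their values are not independent. The other droplet list had 1 call of 22, *Lipa* (0.53), and the PPAR list 1 higher and 4 lower of 17, among them *Acot1* (-0.29) and *Angptl4* (0.38), and 0 of 13 hypoxia genes were called, with 3 at an unadjusted *P* under 0.05. All 12 interferon genes were called higher (median log2 fold change 5.56), with a summed level between 1202 and 1749 in BMAL1 and between 42614 and 65331 in BOTH. The summed bile duct markers lay between 4867 and 5550 in BMAL1 and between 3803 and 4633 in BOTH. The part of either in these differences was not tested.

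The interaction term compared the effect of *Bmal1* esiRNA in cells that also received *Chrebp* esiRNA with its effect in cells that did not. Total esiRNA rose from 100 to 200 nM in the former (BOTH against CHREBP). It fell from 200 to 100 nM in the latter (BMAL1 against CON), so the term also holds esiRNA dose. None of the 8 members was called by DESeq2 or edgeR, against 1.47% of 13883 genes, and 1 had an unadjusted *P* under 0.05. It was *Plin2*, with an interaction of 0.16 on the log2 scale (95% interval 0.01 to 0.31, DESeq2 *Padj* = 0.450). *Pnpla2* had 0.31 (95% interval -0.06 to 0.68), and 0.14 without BOTH replicate 4 or 0.20 without CON replicate 4. The term was 0.18 for *Abhd5* (95% interval -0.12 to 0.47, and 0.08 without CON replicate 3) and -0.03 for *G0s2* (95% interval -0.26 to 0.19). *Plin3* had -0.23 (*Padj* = 0.564), and -0.32 without BOTH replicate 4 (*Padj* = 0.0667), where it was called. In the likelihood ratio test over the 4 esiRNA groups, DESeq2 called 4 of 8 members, against 9.92% of 13883 genes. These were *G0s2* (*Padj* = 0.000188), *Abhd5* (*Padj* = 0.00623), *Plin2* (*Padj* = 0.0347) and *Pnpla2* (*Padj* = 0.0465), while *Plin3* was at 0.105. *Plin2* lost this call without BMAL1 replicate 2 or 4 (*Padj* = 0.163 and 0.148), without BOTH replicate 3 (*Padj* = 0.117) and with edgeR (*Padj* = 0.121). *Pnpla2* lost it without BOTH replicate 4 (*Padj* = 0.386) and with edgeR (*Padj* = 0.106). *Plin3* was called without BMAL1 replicate 4 (*Padj* = 0.0677) and without BOTH replicate 4 (*Padj* = 0.000470). It was also called with no filter on low counts (*Padj* = 0.0941) and with a mean of at least 10 counts per library (*Padj* = 0.0862).

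Across the 24 libraries, correlations of log2 levels between the 7 expressed members ran from -0.67 to 0.51 among the pairs that include *Plin2*, *Pnpla2*, *G0s2* or *Hilpda*. The correlation was -0.67 between *Plin2* and *G0s2*, 0.51 between *G0s2* and *Plin3*, 0.44 between *G0s2* and *Cideb*, 0.16 between *Pnpla2* and *Abhd5*, -0.31 between *Pnpla2* and *G0s2* and -0.04 between *G0s2* and *Hilpda* (Pearson's r, n = 24). These are descriptions: the libraries share groups and size factors. Among 9380 genes with a mean of at least 50 normalized counts, the patterns most like *Plin2* were those of *Areg* (r = 0.93), *Pno1* (0.89) and *Ints13* (0.85), and the patterns most like *G0s2* those of *Gdpd5* (0.93), *Mettl26* (0.90) and *Ambp* (0.89). *Pnpla2* was most like *Plod3* (0.79), *Hhex* (0.79) and *Ier5* (0.77), and *Hilpda* most like *Bub1b*, *Pbk* and *Pimreg* (0.71 each).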

How the data were processed

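AML-12 RNA was measured by BRB-seq, which sequences the 3′ end of each transcript. The deposited table holds raw counts per gene that the authors made: reads were demultiplexed and aligned to mm10 with STAR, count matrices came from HTSeq, and featureCounts is also named for the reads per gene, without versions. The 5 summary lines of the table (such as reads not aligned, 24.9% to 28.0% of a library, and reads in no feature, 5.11% to 6.47%) were left out of library sizes and tests. Groups came from the labels.

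Following the study, genes whose counts summed to 25 or more were tested with the Wald test of DESeq2 1.42.0 (R 4.3.3) at a Benjamini-Hochberg *Padj* under 0.1. PAL against BSA and CON against PAL used 8 libraries each, and the esiRNA groups 16 in 1 fit, with an interaction term and a likelihood ratio test. *P* values were adjusted over all genes tested. Fold changes are from these fits, and normalized counts use size factors over all 24 libraries. Means and SDs have n = 4. *Cidec* was tested by exact permutation of log2(normalized count + 1). Alternatives were edgeR 4.0.16 (quasi-likelihood, TMM), TMM size factors, no filter and a mean of at least 10 counts per library. Others were a replicate block, all 24 libraries in 1 fit, the compared groups alone and each library left out.

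The fitting steps were tested on simulated data with known changes. Replicate pairs differed by more than counting noise (chi-square per degree of freedom 2.70 to 23.1), so each library counted once. Intervals cover the spread between libraries; the floor of 3 counts covers counting error only. Named genes were the 10 members, with at most 3 called genes of each list by smallest *P* and the 3 genes of most similar pattern; exceptions are marked. *Spart* and *Ca9* had no row in the table, and 1 gene of the PPAR list is not reported here. Positions are from GENCODE M21 and promoters from RefSeq. The members and lists were chosen with earlier results of these data known.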

Additional observations from a re-analysis of the deposited data

Results flagged for a closer look

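Of 42 sets of 4 libraries (each of the 7 expressed members in each group), 4 had a highest or lowest library far from the other 3 by Dixon's criterion, which chance meets in about 1 of 20 sets. *Pnpla2* in BOTH replicate 4 was at 1301 normalized counts, against 840 to 885 in the other BOTH libraries. *G0s2* in CON replicate 1 was at 621 against 525 to 538. *Hilpda* in PAL replicate 2 was at 118, below 155 to 159. *Cideb* in PAL replicate 1 was at 741 against 668 to 679. Of the 3 low members, 6 sets with a library over 3 counts were also checked and 12 were left out, and there the chance rate does not apply. *Plin4* in CHREBP replicate 4 was at 9.97 normalized counts, from 9 reads, against 0 in the other CHREBP libraries.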

How the results depend on the processing

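The numbers of members called stayed within 1.5 times the value reported under most alternatives. PAL against BSA fell from 4 to 2 called members with a replicate block, where *Hilpda* (*Padj* = 0.116) and *Cideb* (*Padj* = 0.126) lost their calls with DESeq2, and *Cideb* also lost its call with no filter (*Padj* = 0.103) and with all 24 libraries in 1 fit (*Padj* = 0.121). The log2 fold changes kept their size in these fits, at 0.46 to 0.48 for *Hilpda* and -0.28 to -0.25 for *Cideb*. The likelihood ratio test fell from 4 to 2 with edgeR and came to 5 with no filter and with a mean of at least 10 counts per library. Replicate numbers gave no uniform pairing of the libraries. Deviations of same-numbered libraries correlated from -0.28 to 0.32 in the esiRNA groups, with 4 of 24 pairs over 0.1. They correlated from -0.01 to 0.08 in PAL and BSA, and from -0.03 to 0.17 in CON and PAL, where 2 of 4 pairs were over 0.1. In CON and PAL 6 of 8 libraries matched best with their own number, and in PAL and BSA 4 of 8. In the esiRNA groups 13 of 48 such checks matched, from 0 of 8 in BMAL1 and CON to 5 of 8 in BOTH and CON. The replicate block moved no other count of members by over 1.5 times. Leaving out 1 library gave 2 to 4 called members in PAL against BSA, 0 to 2 in CHREBP against CON, 2 to 3 in BOTH against CON, 3 to 6 in BOTH against BMAL1, 0 to 1 for the interaction and 3 to 4 in the likelihood ratio test. None of the values that changed sign was called, and each did so only with 1 library left out, where the log2 fold changes ran as follows. In PAL against BSA *Plin3* ran from -0.1155 to 0.0082. In CON against PAL *Pnpla2* ran from -0.0735 to 0.1453 and *Abhd5* from -0.0028 to 0.1868. In BMAL1 against CON *Pnpla2* ran from -0.0711 to 0.1494, *Abhd5* from -0.138 to 0.0134, *G0s2* from -0.0389 to 0.0465 and *Hilpda* from -0.2271 to 0.0445. In CHREBP against CON *Pnpla2* ran from -0.0395 to 0.181, and in BOTH against CON *Cideb* from -0.2037 to 0.0018. In BOTH against CHREBP *Cideb* ran from -0.0997 to 0.1057 and *Hilpda* from -0.2264 to 0.0079. The interaction ran from -0.193 to 0.0117 for *Cideb*, from -0.0925 to 0.004 for *G0s2* and from -0.1724 to 0.1021 for *Hilpda*. In the fit of BOTH and BMAL1 alone *Plin3* was not called (*Padj* = 0.113). Over the log2 fold changes of the 7 expressed members and their alternatives, with the likelihood ratio test not counted, 814 kept direction and call, 31 lost a call, 6 gained one and 24 changed sign. The cause of these shifts was not tested. Depth limits *Plin4*, *Plin5* and *Cidec*.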
